A study of Homo sapiens with 15 samples.

Results

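Messenger RNA levels of 9 homologous recombination genes, BRCA1, BARD1, PALB2, BRCA2, RAD51C, RAD51D, XRCC2, XRCC3 and RAD52, were examined in platinum-resistant derivatives of the ovarian cancer line OVCAR4. They were chosen by name, as the rows whose Ensembl identifiers carry these symbols, and all 9 were among the 16604 genes of the expression table. BRCA1 and RAD51C rose and BARD1 fell in all 4 resistant lines against the parental line. The rise of RAD51C in 2 of them, Ov4Carbo4 and Ov4Carbo7, did not pass once a number series in the sample titles was allowed for. Its rise in Ov4Carbo did not pass in a fit on the Ov4Carbo and parental samples alone. Of the other 6 genes, BRCA2 fell in 2 lines, RAD51D rose in 1 line, XRCC3 rose in 1 line and fell in 2, PALB2 and XRCC2 rose in 1 line each, and no difference of RAD52 from the parental line passed. Of these, BRCA2 in Ov4Carbo7 and XRCC3 in Ov4Carbo4 did not pass with the series term either, and BRCA2 in Ov4Carbo7, XRCC3 in Ov4Cis and PALB2 and XRCC2 in Ov4Carbo were lost without single libraries.

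OVCAR4, an established cell line, comes from high-grade serous carcinoma of the ovary, and 5 lines were compared with 3 biological replicates each, 15 samples in all. Ovcar4Parental is the parental line, Ov4Cis was grown in rising doses of cisplatin and is cisplatin resistant, and Ov4Carbo was grown in rising doses of carboplatin and is carboplatin resistant. Ov4Carbo4 and Ov4Carbo7 are carboplatin-resistant lines, each grown from a single cell of Ov4Carbo, so each is 1 clone, and no second selected population per drug was among the samples. All groups share the OVCAR4 background and the same culture medium, and the labels name no genetic alteration made in the laboratory and no drug at harvest. Since the replicates are repeats of 1 line, a p-value here compares these particular lines with each other and does not speak of cisplatin or carboplatin selection in general.

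Homologous recombination repairs a broken chromosome by copying an intact sister sequence, and it is needed to finish the repair of the crosslinks that platinum drugs make between DNA strands. BRCA1, with its partner BARD1, acts at the resected end, PALB2 joins BRCA1 to BRCA2, and BRCA2 acts on the single-stranded DNA so exposed to start strand exchange. RAD51C, RAD51D, XRCC2 and XRCC3 are subunits of complexes that assist BRCA2 in that step, and RAD52 anneals single strands and serves a backup route. In ovarian cancer, inherited or acquired loss of BRCA1 or BRCA2 is known for sensitivity to platinum, and restored function for resistance.

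The levels were read as log2 RPKM, that is reads scaled to gene length and to the total of the library, normalised by the authors with conditional quantile normalisation. Every sample had a median of 2.77 and a maximum of 10.258 log2 RPKM, and the read depth behind the values is unknown. The ovarian epithelial factor PAX8 was present in every sample, at 5.66 to 6.87 log2 RPKM, whereas WT1, another marker of serous carcinoma, was low in every sample, at -6.37 to -0.98. The epithelial marker EPCAM stood at 5.98 ± 0.14 (SD, n = 3) in the parental line. It stood at 1.17 ± 0.38 in Ov4Cis and 3.01 ± 0.07 in Ov4Carbo7, and at 5.32 ± 0.36 in Ov4Carbo and 5.23 ± 0.06 in Ov4Carbo4. MUC16 was also lowest in Ov4Cis and Ov4Carbo7, with means of -1.73 and -0.21. Not all markers set those 2 lines apart. KRT7, KRT8 and KRT18 had lower means than the parental line in all 4 resistant lines. FOLR1 had a lower mean in Ov4Carbo4 (-0.76) than in Ov4Carbo7 (1.25). Of the leukocyte, endothelial and fibroblast markers, VWF, LUM and PDGFRB had rows in the table and reached at most 0.28 log2 RPKM. The sample titles fall into 2 number series, and the labels do not say what the series stand for. One holds 7 samples, all of Ov4Carbo4 and Ov4Carbo7 and replicate 1 of Ov4Carbo, and the other holds the other 8. The clones and the parental line thus share no series and are linked only through Ov4Carbo. A term for the series is therefore set by replicate 1 of Ov4Carbo against its replicates 2 and 3. With that term, a series effect cannot be told apart from the scatter among those 3 libraries. Results that change with the term are given with and without it.

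Sequences upstream of 3 genes are shown because BRCA1, RAD51C and BARD1 are the members that differed from the parental line in the same direction in all 4 resistant lines. Each is the 250 bases before the RefSeq transcription start, on the gene's own strand, in build GRCh38.p14, which is not the build of the authors' alignment. Capitals mark matches, on either strand, to 4 short motifs: an E2F-like site (GCGGGAA), a cyclic AMP response element (TGACGTCA), a CCAAT box (CCAAT) and a GC box (GGGCGG). A match is a run of letters and not a shown binding site.
BRCA1, chr17:43125365-43125614, minus strand: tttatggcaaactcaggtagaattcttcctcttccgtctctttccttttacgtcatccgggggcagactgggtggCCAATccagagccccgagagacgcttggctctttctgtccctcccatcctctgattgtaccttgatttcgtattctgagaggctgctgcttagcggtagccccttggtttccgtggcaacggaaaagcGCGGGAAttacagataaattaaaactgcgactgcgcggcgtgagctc
RAD51C, chr17:58692352-58692601, plus strand: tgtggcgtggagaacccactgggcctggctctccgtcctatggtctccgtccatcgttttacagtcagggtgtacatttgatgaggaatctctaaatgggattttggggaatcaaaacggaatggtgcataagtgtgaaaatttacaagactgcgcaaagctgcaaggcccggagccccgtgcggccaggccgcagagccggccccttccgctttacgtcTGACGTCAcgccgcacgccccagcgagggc
BARD1, chr2:214809684-214809933, minus strand: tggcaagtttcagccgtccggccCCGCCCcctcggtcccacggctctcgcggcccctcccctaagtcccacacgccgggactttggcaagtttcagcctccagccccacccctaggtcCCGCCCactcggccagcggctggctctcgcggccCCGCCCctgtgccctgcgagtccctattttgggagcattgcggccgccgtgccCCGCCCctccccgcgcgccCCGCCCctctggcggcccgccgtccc
The BRCA1 window held 1 E2F-like match and 1 CCAAT box, the RAD51C window held 1 cyclic AMP response element, and the BARD1 window held 5 GC boxes, so the 3 windows shared none of the 4 motifs. Among 34943 RefSeq promoter windows of the same length, 5.51% held the E2F-like letters, 1.63% the cyclic AMP response element, 32.0% a CCAAT box and 42.5% a GC box. Base composition also differed, with 52.4% G and C in the BRCA1 window, 57.6% in the RAD51C window and 75.2% in the BARD1 window.

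Differences between lines were tested with limma across all 16604 genes and all 15 samples, and a gene was taken as changed at a Benjamini-Hochberg adjusted p under 0.05. In an F-test among the 5 lines, 8 of the 9 genes differed, where 76.9% of all genes did. The exception was RAD52 (limma, adjusted p = 0.0516). Against the parental line, 6 of 9 members changed in Ov4Cis (4 higher and 2 lower), where 36.2% of all genes did (19.8% higher, 16.4% lower). In Ov4Carbo 5 changed (4 higher, 1 lower), beside 34% of all genes (17.7% higher, 16.2% lower). In Ov4Carbo4 4 changed (2 higher, 2 lower), beside 39.7% (21.6% and 18%), and in Ov4Carbo7 5 changed (2 higher, 3 lower), beside 42.6% (22.2% and 20.4%). The count in Ov4Carbo was 3 without parental replicate 1, and that in Ov4Carbo4 was 2 with the title series term. With the further condition of a log2 fold change of at least 1 in either direction, the counts were 0 for Ov4Cis, 2 for Ov4Carbo, 1 for Ov4Carbo4 and 0 for Ov4Carbo7. Of all genes, 15.9%, 12.7%, 15.1% and 17% passed. An unadjusted limma p under 0.05 was found for 6, 5, 6 and 6 members in those lines in that order. Of all 16604 genes, 7489, 7361, 7910 and 8366 had one. The median log2 difference of the 9 members from the parental line was -0.11, 0.19, 0.16 and 0.06 in those lines in that order, beside 0.04, 0.03, 0.07 and 0.02 over all genes. All 4 comparisons share the 3 parental samples, so their results are not independent of each other.

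**Figure D1:**
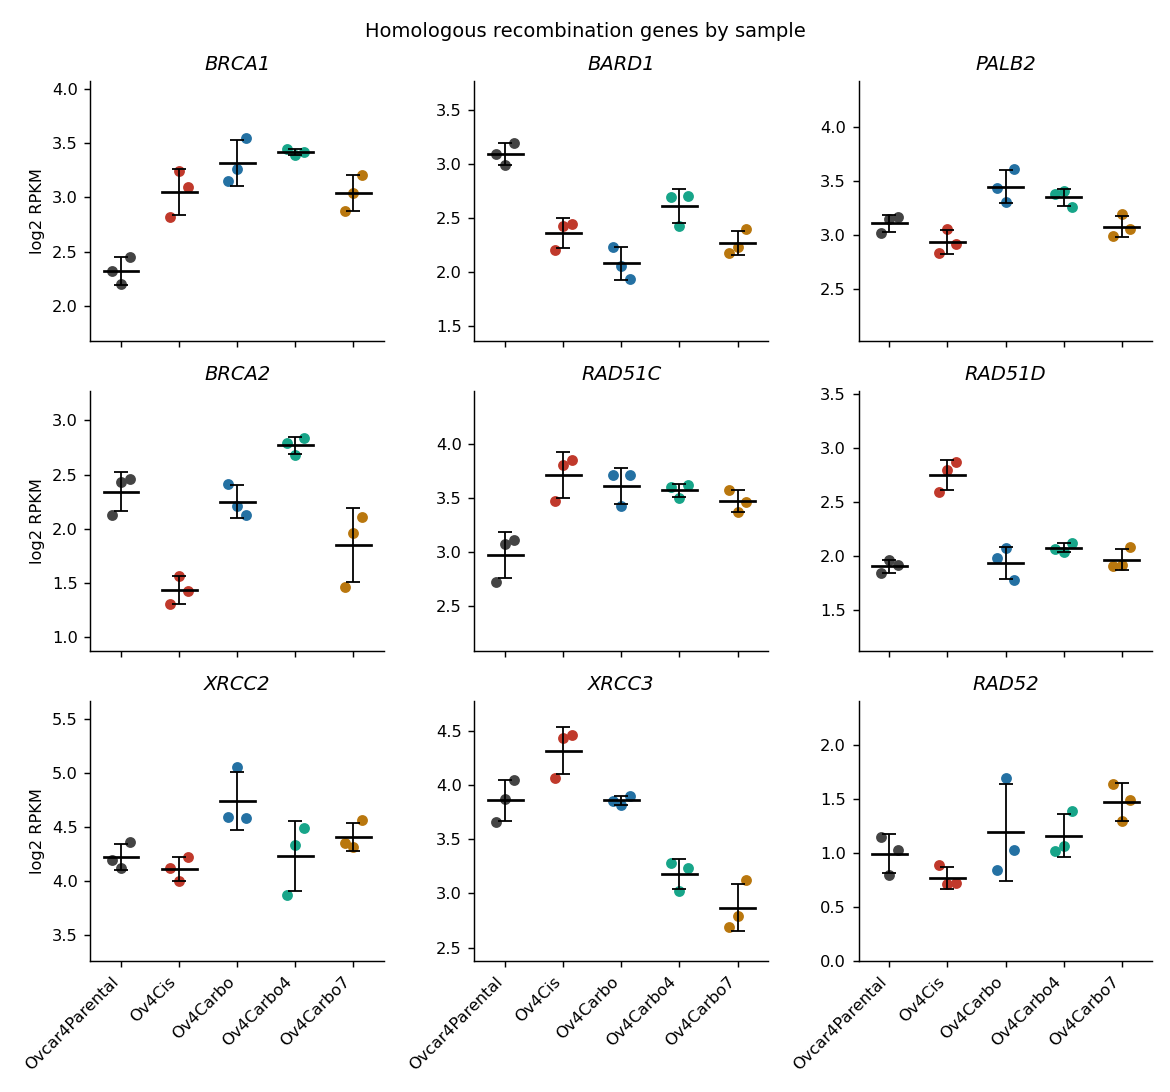
Level of each of the 9 genes in log2 RPKM (vertical axes, each spanning the same number of units) in the 5 lines (horizontal axis); points are the 3 replicates, the long horizontal line is their mean and the bars are 1 SD. BRCA1 and RAD51C were above, and BARD1 below, the parental samples in all 12 resistant samples.

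BRCA1 (ENSG00000012048, chromosome 17), the ubiquitin ligase and scaffold of the pathway, had its lowest level in the parental line. Its replicates stood at 2.32, 2.20 and 2.45 log2 RPKM in Ovcar4Parental, at 2.82, 3.24 and 3.10 in Ov4Cis, at 3.15, 3.26 and 3.55 in Ov4Carbo, at 3.45, 3.39 and 3.42 in Ov4Carbo4 and at 2.87, 3.04 and 3.21 in Ov4Carbo7. All 12 resistant samples lay above all 3 parental samples, a pattern met by 6.17% of all genes, and 4.49% of all genes passed the test as higher in all 4 lines. BRCA1 rose by 0.74 on the log2 scale for Ov4Cis (SE 0.14, limma adjusted p = 0.00103), 1.00 for Ov4Carbo (1.72e-04), 1.10 for Ov4Carbo4 (5.31e-05) and 0.72 for Ov4Carbo7 (0.00109), which is 1.65-fold to 2.15-fold. Neighbours in the order of the 4 resistant lines, Ov4Carbo4, Ov4Carbo, Ov4Cis and Ov4Carbo7, did not differ at the threshold. The ends of that order did, with a log2 difference of -0.38 in Ov4Carbo7 against Ov4Carbo4 (limma adjusted p = 0.0343). That call was lost without any 1 of the 3 Ov4Carbo4 replicates or without replicate 1 or 2 of Ov4Carbo7, with adjusted p of 0.0657 to 0.13.

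BARD1 (ENSG00000138376, chromosome 2), the obligate partner of BRCA1 in its ubiquitin ligase, moved the other way. The parental replicates stood at 3.09, 2.99 and 3.19 log2 RPKM, those of Ov4Cis at 2.20, 2.43 and 2.44, of Ov4Carbo at 2.23, 2.06 and 1.94, of Ov4Carbo4 at 2.69, 2.43 and 2.70, and of Ov4Carbo7 at 2.18, 2.23 and 2.40. All 12 resistant samples lay below the parental samples, as was the case for 4.95% of all genes, and 3.26% passed as lower in all 4 lines. BARD1 fell by 0.74 in Ov4Cis (SE 0.12, limma adjusted p = 3.25e-04), by 1.01 in Ov4Carbo (4.90e-05), by 0.49 in Ov4Carbo4 (0.00566) and by 0.82 in Ov4Carbo7 (1.28e-04), on the log2 scale. The clone Ov4Carbo4 kept more BARD1 than its source population, by 0.53 (limma adjusted p = 0.00365). With a term for the title series described above, this difference was 0.37 with an adjusted p of 0.0982.

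The mean BRCA1 level was thus below the mean BARD1 level in the parental line (2.32 ± 0.13 against 3.09 ± 0.10 log2 RPKM, SD, n = 3) and above it in each resistant line. In Ov4Carbo the means were 3.32 ± 0.21 for BRCA1 and 2.08 ± 0.15 for BARD1, and in Ov4Carbo4 they were 3.42 ± 0.03 and 2.61 ± 0.16. RPKM is scaled to gene length, but this order between 2 genes also rests on the gene lengths used by the authors, which are not given in the sources used here.

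PALB2 (ENSG00000083093, chromosome 16), the bridge between BRCA1 and BRCA2, had the narrowest spread of line means. Its replicates were 3.02, 3.15 and 3.17 log2 RPKM in the parental line, 2.84, 3.06 and 2.92 in Ov4Cis, 3.44, 3.31 and 3.61 in Ov4Carbo, 3.38, 3.41 and 3.26 in Ov4Carbo4, and 2.99, 3.20 and 3.06 in Ov4Carbo7. The 6 samples of Ov4Carbo and Ov4Carbo4 lay above all samples of the other 3 lines. Only the rise in Ov4Carbo passed the test against the parental line, at 0.34 (SE 0.10, limma adjusted p = 0.0237), and that call was lost without replicate 1 or 2 of the parental line or replicate 3 of Ov4Carbo (adjusted p 0.0529 to 0.0782). The difference was -0.18 in Ov4Cis (adjusted p = 0.211, 95% interval -0.40 to 0.05), 0.24 in Ov4Carbo4 (0.0885, 0.01 to 0.46) and -0.03 in Ov4Carbo7 (0.831, -0.26 to 0.19).

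BRCA2 (ENSG00000139618, chromosome 13), the large protein that starts strand exchange, had the widest range among the 4 BRCA-axis genes, from Ov4Cis to Ov4Carbo4. Replicates stood at 2.13, 2.43 and 2.46 log2 RPKM in the parental line, 1.30, 1.56 and 1.42 in Ov4Cis, 2.41, 2.21 and 2.13 in Ov4Carbo, 2.79, 2.68 and 2.84 in Ov4Carbo4, and 1.46, 1.96 and 2.11 in Ov4Carbo7. The Ov4Cis samples lay below all samples of the parental, Ov4Carbo and Ov4Carbo4 lines and overlapped those of Ov4Carbo7, while the 3 Ov4Carbo4 samples lay above all others. BRCA2 fell by 0.92 in Ov4Cis (SE 0.16, limma adjusted p = 6.18e-04) and by 0.50 in Ov4Carbo7 (adjusted p = 0.024).

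The fall in Ov4Carbo7 leaned on single libraries. Without Ov4Carbo7 replicate 1 the log2 difference was -0.30 (limma adjusted p = 0.0988), and without parental replicate 2 or 3 the adjusted p was 0.0779 or 0.083. In Ov4Carbo4 BRCA2 stood 0.43 above the parental mean, with a limma adjusted p of 0.05004, just outside the threshold, and Ov4Carbo differed from the parental line by -0.09 (adjusted p = 0.684). Between resistant lines, the log2 difference in BRCA2 was -1.34 in Ov4Cis against Ov4Carbo4 (limma adjusted p = 2.88e-05) and -0.92 in Ov4Carbo7 against Ov4Carbo4 (4.02e-04), so the level in one clone was 0.528 of that in the other.

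RAD51C (ENSG00000108384, chromosome 17), a subunit of the complex with RAD51D and XRCC2 and of that with XRCC3, rose in every resistant line. Parental replicates stood at 2.72, 3.07 and 3.11 log2 RPKM, those of Ov4Cis at 3.47, 3.80 and 3.85, of Ov4Carbo at 3.71, 3.42 and 3.71, of Ov4Carbo4 at 3.60, 3.50 and 3.62, and of Ov4Carbo7 at 3.57, 3.37 and 3.46. No resistant sample overlapped the parental ones. The rise was 0.74 for Ov4Cis (SE 0.14, limma adjusted p = 9.54e-04), 0.64 for Ov4Carbo (0.00341), 0.60 for Ov4Carbo4 (0.0037) and 0.50 for Ov4Carbo7 (0.01002). With the title series term it was 0.46 (0.186) and 0.36 (0.299) in the 2 clones, which passed no longer, and a fit on the Ov4Carbo and parental samples alone gave an adjusted p of 0.0551 for Ov4Carbo. No difference in RAD51C between resistant lines passed the test, with log2 differences between neighbours in order of 0.04 to 0.10 and adjusted p of 0.56 to 0.843.

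RAD51D (ENSG00000185379, chromosome 17), which sits between RAD51C and XRCC2 in one complex, stood apart in Ov4Cis. Its replicates were 1.85, 1.97 and 1.92 log2 RPKM in the parental line, 2.59, 2.80 and 2.87 in Ov4Cis, 1.98, 2.08 and 1.78 in Ov4Carbo, 2.07, 2.04 and 2.12 in Ov4Carbo4, and 1.91, 1.92 and 2.09 in Ov4Carbo7. The 3 Ov4Cis samples lay above the 12 others. Among those, the Ov4Carbo4 samples lay above the parental ones, and the other pairs of lines overlapped. RAD51D rose by 0.84 in Ov4Cis against the parental line (SE 0.10, limma adjusted p = 4.31e-05), a 1.79-fold difference. Ov4Cis also exceeded Ov4Carbo by 0.81 (8.29e-05), Ov4Carbo4 by 0.67 (2.25e-04) and Ov4Carbo7 by 0.78 (9.50e-05), as limma adjusted p. In the 3 carboplatin-resistant lines the differences from the parental line were 0.03, 0.16 and 0.06, with 95% intervals that lay between -0.19 and 0.39.

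XRCC2 (ENSG00000196584, chromosome 7), the other end of that complex, was highest in Ov4Carbo. Replicates stood at 4.19, 4.12 and 4.36 log2 RPKM in the parental line, 4.12, 4.0 and 4.22 in Ov4Cis, 4.59, 5.05 and 4.58 in Ov4Carbo, 3.87, 4.33 and 4.49 in Ov4Carbo4, and 4.35, 4.31 and 4.56 in Ov4Carbo7. The 3 Ov4Carbo samples were the highest of the 15, with replicate 2 well above the rest. XRCC2 rose by 0.51 in Ov4Carbo (SE 0.17, limma adjusted p = 0.0331). The call was lost without replicate 2 of Ov4Carbo, where the difference was 0.36 (adjusted p = 0.126), and without parental replicate 1 or 2 (0.0739 or 0.106). Differences from the parental line in the other lines were -0.11 in Ov4Cis, 0.01 in Ov4Carbo4 and 0.18 in Ov4Carbo7, and none passed the test.

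XRCC3 (ENSG00000126215, chromosome 14), the partner of RAD51C in the other complex, had the widest range of the 9 genes. Its replicates were 3.66, 3.87 and 4.05 log2 RPKM in the parental line, 4.07, 4.44 and 4.46 in Ov4Cis, 3.85, 3.82 and 3.90 in Ov4Carbo, 3.28, 3.02 and 3.24 in Ov4Carbo4, and 2.69, 2.79 and 3.12 in Ov4Carbo7. The samples of both clones lay below all samples of the other 3 lines, and those of Ov4Cis lay above all of these, though replicate 1 of Ov4Cis only just exceeded replicate 3 of the parental line. XRCC3 fell by 0.68 in Ov4Carbo4 (SE 0.15, limma adjusted p = 0.00275) and by 1.00 in Ov4Carbo7 (1.66e-04), to 0.502 of the parental level, and rose by 0.46 in Ov4Cis (0.0254).

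The source population Ov4Carbo had the same mean XRCC3 level as the parental line, 3.86 ± 0.04 against 3.86 ± 0.19 (SD, n = 3), with a 95% interval of the difference from -0.32 to 0.31. Both clones were lower than it, Ov4Carbo4 by 0.68 (limma adjusted p = 0.00304) and Ov4Carbo7 by 0.99 (2.85e-04). The rise in Ov4Cis against the parental line was lost without parental replicate 1 or 2, or without Ov4Cis replicate 2 or 3, with adjusted p of 0.0589 to 0.101.

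Counting of XRCC3 is uncertain. In the GENCODE 29 annotation, 5756 of its 7507 exonic bases (76.7%) are also exonic in KLC1, a kinesin light chain gene on the opposite strand, and no source used here says that the counting used strand. KLC1 stood at 2.50 ± 0.09 log2 RPKM in the parental line, 2.64 ± 0.04 for Ov4Cis, 2.50 ± 0.22 for Ov4Carbo, 2.17 ± 0.09 for Ov4Carbo4 and 2.28 ± 0.25 for Ov4Carbo7 (SD, n = 3). Its differences from the parental line were 0.14 in Ov4Cis, -0.34 in Ov4Carbo4 and -0.22 in Ov4Carbo7, in the same direction as those of XRCC3 but smaller, and none passed the test. Between Ov4Cis and the clones KLC1 differed by 0.47 against Ov4Carbo4 (limma adjusted p = 0.0136), which passed, and by 0.36 against Ov4Carbo7 (0.0544). The part of shared reads in the XRCC3 values was not tested.

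RAD52 (ENSG00000002016, chromosome 12), the single-strand annealing factor, had the lowest level of the 9 genes. Replicates stood at 1.15, 0.80 and 1.03 log2 RPKM in the parental line, 0.89, 0.71 and 0.72 in Ov4Cis, 0.84, 1.69 and 1.03 in Ov4Carbo, 1.02, 1.06 and 1.39 in Ov4Carbo4, and 1.64, 1.29 and 1.49 in Ov4Carbo7. The Ov4Carbo7 samples lay above all parental and Ov4Cis samples, and the Ov4Carbo samples spread over nearly the whole range. RAD52 differed from the parental line by -0.22 for Ov4Cis, 0.19 for Ov4Carbo, 0.16 for Ov4Carbo4 and 0.48 for Ov4Carbo7, and none of these passed (limma adjusted p of 0.0664 to 0.551). Ov4Cis differed from Ov4Carbo7 by -0.70 (SE 0.20, limma adjusted p = 0.0129), and without Ov4Carbo7 replicate 1 the log2 difference was -0.62 (0.0505).

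**Figure D2:**
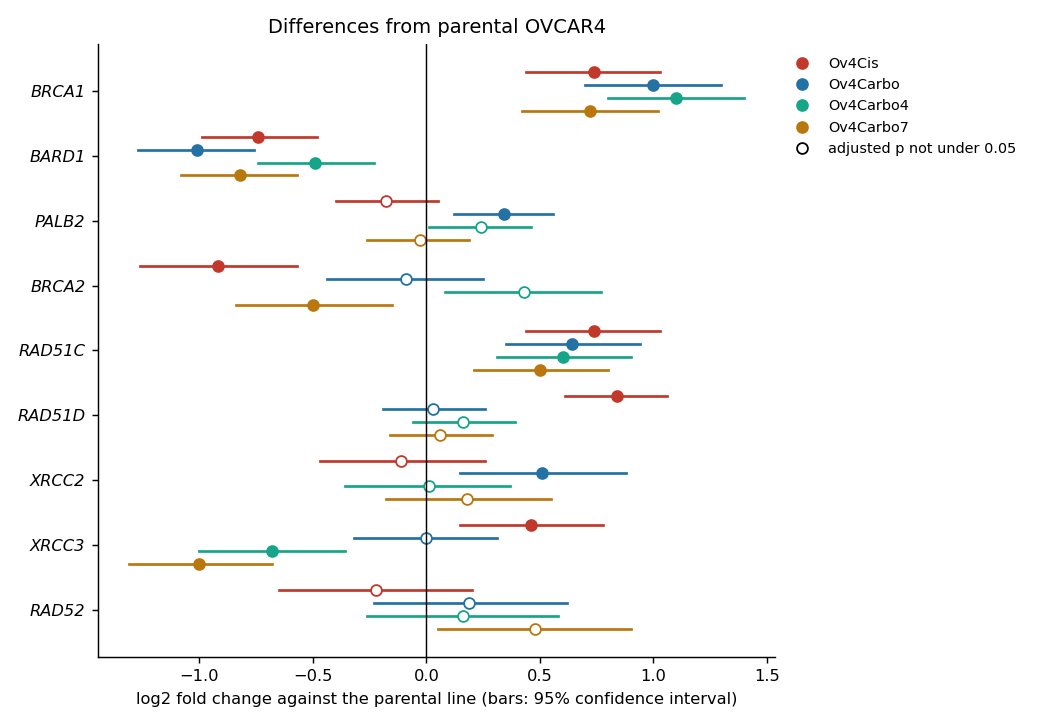
Log2 difference of each gene in each resistant line from the parental line (horizontal axis), with 95% confidence intervals from limma as bars, 3 replicates per line; filled points had an adjusted p under 0.05 and open points did not. The 4 points of BRCA1 lie between 0.72 and 1.10, those of BARD1 between -1.01 and -0.49, and those of XRCC3 on both sides of 0.

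The clones were also set against their source population. In Ov4Carbo4 against Ov4Carbo, 4 of 9 members changed, BARD1 and BRCA2 higher and XRCC2 and XRCC3 lower, where 42.2% of all genes changed. The BRCA2 difference of 0.52 (limma adjusted p = 0.0202) missed the threshold without replicate 1 or 3 of Ov4Carbo4 or replicate 2 or 3 of Ov4Carbo (0.0502 to 0.0652), and the XRCC2 difference of -0.51 (0.0285) did so without Ov4Carbo replicate 2 (-0.35, 0.111) or Ov4Carbo4 replicate 1 (-0.33, 0.125). In Ov4Carbo7 against Ov4Carbo, 2 members changed, XRCC3 and PALB2, both lower, where 36.6% of all genes changed. The log2 difference in PALB2 was -0.37 (limma adjusted p = 0.0139), and without Ov4Carbo replicate 3 the adjusted p was 0.05011.

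Between the 2 clones, 4 of 9 members changed, BRCA1, BARD1, PALB2 and BRCA2, all lower in Ov4Carbo7 than in Ov4Carbo4, where 51.1% of all genes changed and 27.1% were lower. The differences in the other 5 did not pass, among them that of XRCC3 at -0.31 (limma adjusted p = 0.0919). Only the BRCA2 difference held in each fit with a replicate left out. The differences in BARD1 (-0.34, limma adjusted p = 0.0294) and PALB2 (-0.27, 0.0454) were lost in 4 and 5 of those 6 fits. The BARD1 call needed replicates 1 and 3 of Ov4Carbo4 and replicates 1 and 2 of Ov4Carbo7 (adjusted p without them 0.0818 to 0.104). The PALB2 call needed every library but replicate 2 of Ov4Carbo7 (0.0515 to 0.14).

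The cisplatin-selected and carboplatin-selected populations differed in 5 of 9 members, where 34.2% of all genes differed. In Ov4Cis, RAD51D and XRCC3 were higher, by 0.81 and 0.47, and PALB2, BRCA2 and XRCC2 were lower, with log2 differences of -0.52, -0.82 and -0.62. The XRCC3 difference (limma adjusted p = 0.0266) was lost without replicate 2 or 3 of Ov4Cis or replicate 2 of Ov4Carbo (0.0636 to 0.102), and that of XRCC2 (0.013) without replicate 2 of either line (0.0509 and 0.05022). BRCA1, BARD1 and RAD51C did not differ at the threshold, with 95% intervals of -0.56 to 0.03, 0.02 to 0.53 and -0.20 to 0.39.

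Set against Ov4Carbo4, Ov4Cis differed in 5 members, where 44% of all genes differed: RAD51D and XRCC3 were higher and BRCA1, PALB2 and BRCA2 lower. The BRCA1 difference of -0.37 (limma adjusted p = 0.0461) was lost without any of the 3 Ov4Carbo4 replicates or without Ov4Cis replicate 1 or 3 (0.0797 to 0.183), and was -0.25 without Ov4Cis replicate 1. Against Ov4Carbo7, Ov4Cis differed in 3 members, where 39.2% of all genes differed: RAD51D and XRCC3 were higher and RAD52 lower. XRCC3 differed by 1.15 and 1.46 in those comparisons (limma adjusted p = 5.31e-05 and 1.08e-05).

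With the title series as a term in limma, BRCA1 stood 1.36 above the parental line in Ov4Carbo4 (adjusted p = 0.00176) and 0.98 in Ov4Carbo7 (0.012). BARD1 stood at -0.72 (0.0202) and -1.05 (0.00364).

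XRCC3 lost its call in Ov4Carbo4 (-0.68, limma adjusted p = 0.0843) and kept it in Ov4Carbo7 (-0.99, 0.0212) under that term. BRCA2 in Ov4Carbo7 was -0.74 (0.0756), and RAD52 in Ov4Carbo7 became a call at 1.00 (0.038). For RAD52 the Ov4Carbo replicates 1, 2 and 3, which set the term, stood at 0.84, 1.69 and 1.03 log2 RPKM. Between clones and Ov4Carbo, the term left BRCA2 at 0.36 (0.26) and XRCC2 at -0.36 (0.292) in Ov4Carbo4, and PALB2 at -0.36 (0.113) in Ov4Carbo7. Against Ov4Carbo4, Ov4Cis then differed by -0.62 in BRCA1 (0.0633) and -0.42 in PALB2 (0.107). Ov4Cis and the parental line lie in 1 series, so their comparison is within it.

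Neighbouring genes on the chromosome were also read beside each member. For each member the 10 nearest genes of the table on either side were taken, in the gene order of GENCODE 29, as a description with no test. The neighbours of BRCA1, whose starts span 0.86 Mb, had a median log2 difference from the parental line of 0.61 for Ov4Cis, 0.52 for Ov4Carbo, 0.83 for Ov4Carbo4 and 0.91 for Ov4Carbo7. Of these 20 genes, 13, 12, 14 and 12 rose in the 4 lines in that order, and 4, 0, 0 and 2 fell. Of all genes, 19.8%, 17.7%, 21.6% and 22.2% were higher in those lines and 16.4%, 16.2%, 18% and 20.4% lower. BRCA1 itself was between the quartiles of its neighbours in 3 lines and above it in Ov4Carbo4, where 3 of 20 neighbours had a larger difference.

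RAD51C lies elsewhere on chromosome 17, and its neighbours, spanning 1.59 Mb, had medians of 0.73, 0.38, 0.91 and 0.68 in the same order of lines. Of the 20 genes, 16, 10, 16 and 15 rose, and 1, 0, 0 and 1 fell. RAD51D, on the same chromosome, had neighbours with a median of 0.48 in Ov4Cis, where RAD51D rose, and of 0.02, 0.16 and -0.07 in the 3 carboplatin-resistant lines, where it did not pass the test. The neighbours of BRCA2 on chromosome 13 had a median of -0.80 in Ov4Cis, with 14 of 20 lower, and of -0.02, 0.24 and -0.18 in the other lines.

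BARD1 differed more from its neighbours. Their medians were -0.12, -0.14, -0.08 and -0.14, and in each line 15 or 16 of 20 neighbours lay above BARD1. XRCC3 lay below 18 of 20 neighbours in Ov4Carbo4 and below 17 of 20 in Ov4Carbo7, where the neighbour medians were -0.35 and -0.45. The neighbours of XRCC2 had medians of 0.09, 0.43, 0.25 and 0.53 in Ov4Cis, Ov4Carbo, Ov4Carbo4 and Ov4Carbo7, while XRCC2 itself passed only in Ov4Carbo. In the same order, the medians were -0.05, 0.25, -0.02 and 0.04 beside PALB2, and -0.02, -0.15, 0.09 and 0.26 beside RAD52. The part that the copy number of these regions has in the levels was not tested, and the table holds no copy number.

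**Figure D3:**
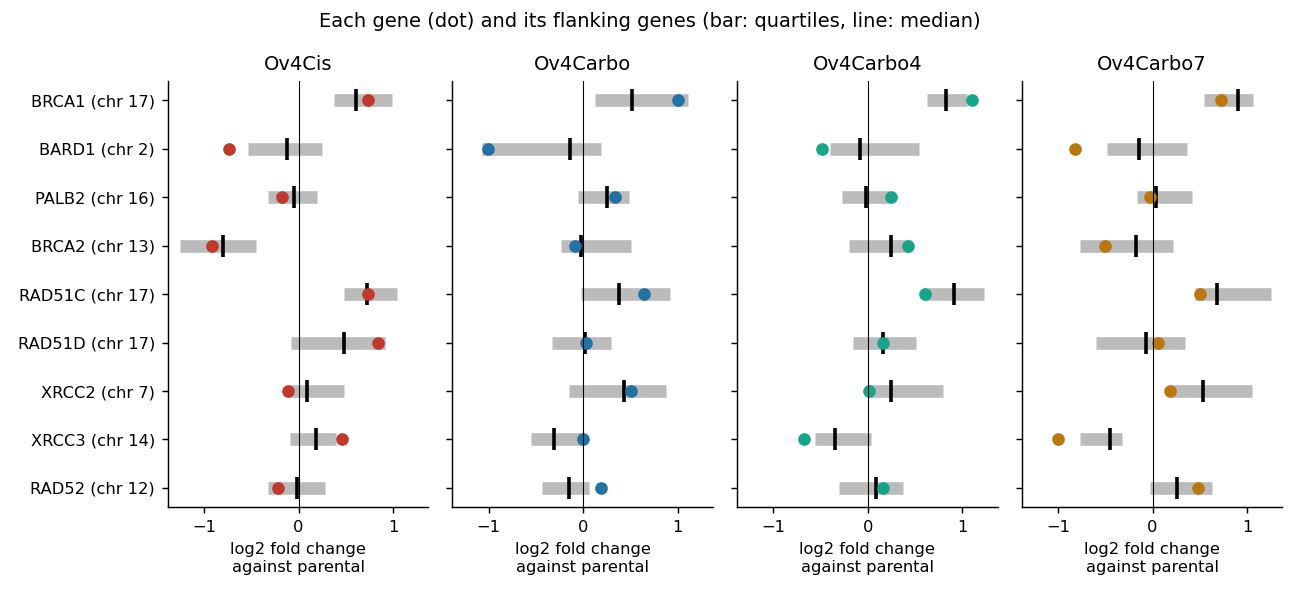
Log2 difference from the parental line (horizontal axes) in the 4 resistant lines for each gene (dot) and for the genes flanking it (grey bar from the lower to the upper quartile, black line at the median; 20 genes each, 19 for RAD52). The dots of BRCA1 and RAD51C lie in or beside bars to the right of 0, and the BARD1 dots lie near or beyond the left end of theirs.

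The genes with the most similar profile over the 15 samples, among 11978 genes with a mean of at least 1 log2 RPKM, are given as a description, since samples of 1 line share that line. For BRCA1 they were KANSL1 (r = 0.932) and DHX40 (r = 0.926), both on chromosome 17 as BRCA1 is. For BRCA2 they were NAV2 on chromosome 11 (r = 0.979) and DIS3 on chromosome 13, that of BRCA2 (r = 0.973). RAD51D was closest to COPRS, also on chromosome 17 (r = 0.962), and then to HCFC2 (r = 0.938). The most similar genes of the other members lay on other chromosomes than the member: SMTN (r = 0.962) and YWHAZ (r = 0.937) for BARD1, SDC3 (r = 0.948) and SLIT2 (r = 0.908) for PALB2, and NEBL (r = 0.927) and E2F4 (r = 0.923) for RAD51C. For XRCC2 they were LENG8-AS1 (r = 0.862) and ZNF121 (r = 0.857), for XRCC3 DDX54 (r = 0.959) and CENPM (r = 0.949), and for RAD52 TENT4A (r = 0.930) and RPL18P13 (r = 0.922). Some of these values leaned on few samples. Without the 2 samples farthest from the member's median, r was 0.794 for NEBL, 0.822 for HCFC2, 0.743 for LENG8-AS1 and 0.737 for ZNF121. For the other named genes it then ran from 0.838 to 0.971. The rank correlation (rho) was 0.707 for NEBL and 0.711 for HCFC2, the lowest of those named.

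Among the 36 pairs of members, the highest correlation over the 15 samples was that of BRCA1 with RAD51C (r = 0.794, rho = 0.621). The lowest was that of XRCC3 with RAD52 (r = -0.681, rho = -0.757). BRCA1 and BARD1, partners in 1 complex, had r = -0.651 and rho = -0.354, and PALB2 and BRCA2 had r = 0.697 and rho = 0.675. These values rest largely on the differences between 5 lines.

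A wider list of 59 homologous recombination genes, with the members left out, gave the surroundings of the pathway, and 57 had a row in the table. Against the parental line, 12 of 57 changed for Ov4Cis (11 higher, 1 lower), 17 for Ov4Carbo (14 higher, 3 lower), 23 for Ov4Carbo4 (18 higher, 5 lower) and 20 for Ov4Carbo7 (8 higher, 12 lower). These are 21.1%, 29.8%, 40.4% and 35.1% of the list, beside 36.2%, 34%, 39.7% and 42.6% of all genes. The medians were 0.02, 0.05, 0.15 and -0.09 on the log2 scale. With Ov4Carbo7 set against Ov4Carbo4, 29 changed (6 higher, 23 lower), or 50.9% of the list. Of all genes, 51.1% changed there and 27.1% were lower.

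Counts by role are given for 6 of the 7 roles, in the order Ov4Cis, Ov4Carbo, Ov4Carbo4 and Ov4Carbo7, and read beside the shares of all genes higher (19.8%, 17.7%, 21.6% and 22.2%) and lower (16.4%, 16.2%, 18% and 20.4%). Of 12 genes of break sensing and end resection, 3, 2, 3 and 3 rose and 0, 0, 1 and 4 fell. Of the 3 subunits of RPA, the protein that coats single-stranded DNA, 1, 2, 2 and 0 rose and 0, 1, 0 and 0 fell. Of 6 other genes of the BRCA1 complexes, 0, 0, 2 and 0 rose and 0, 0, 1 and 1 fell. Among 7 helicases and remodelers, 3, 2, 3 and 2 rose and 0, 1, 1 and 2 fell. Among 7 genes that resolve joint molecules, 2, 1, 3 and 1 rose and 0, 0, 2 and 1 fell. Among 8 genes of end protection and competing routes, 0, 2, 2 and 1 rose and 0, 1, 0 and 0 fell. These groups are small, and no role was tested against the rest.

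Named by a log2 difference of at least 1 were EME1, RECQL5 and PSMC3IP. EME1, a subunit of a structure-specific nuclease with MUS81, stood at 2.57, 2.19 and 2.20 log2 RPKM in the parental line and at 3.03, 3.65 and 3.52 in Ov4Carbo, a rise of 1.08 (SE 0.15, limma adjusted p = 2.11e-04). RECQL5, a DNA helicase of the RecQ family, stood at 2.43, 2.53 and 2.34 in the parental line, 3.54, 3.49 and 3.50 in Ov4Carbo and 3.57, 3.44 and 3.54 in Ov4Carbo7. It rose by 1.07 (6.01e-06) and 1.08 (2.90e-06), and the samples of those 2 lines lay about 1 unit above the parental ones without overlap.

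PSMC3IP, a cofactor of strand exchange also used in meiosis, stood at 2.18, 2.35 and 2.32 log2 RPKM in the parental line and at 3.32, 3.09 and 3.48 in Ov4Carbo4, a rise of 1.02 (SE 0.12, limma adjusted p = 3.08e-05). All 3 genes lie on chromosome 17, as BRCA1, RAD51C and RAD51D do. The wider list had 7 genes on that chromosome, and only these 3 of them rose in all 4 lines. Of the rest, RPA1 fell in Ov4Carbo (-0.44) and ZSWIM7 changed in no line. BRIP1 rose in Ov4Carbo4 (0.47) and fell in Ov4Carbo7 (-0.51), and TOP3A rose in Ov4Carbo4 (0.45). Of the 57 genes, 4 passed as higher in all 4 resistant lines, where 4.49% of all genes did. They were EME1, RECQL5, PSMC3IP and FBH1, a helicase gene on chromosome 10, named after its values were seen. For PSMC3IP this rests on 2 calls that were often lost. Its rise of 0.34 in Ov4Cis (limma adjusted p = 0.0375) was lost in 5 of 6 fits without 1 library, all but that without Ov4Cis replicate 1 (0.0571 to 0.148), and with the replicate block (0.0582). Its rise of 0.38 in Ov4Carbo7 (0.0197) was lost without parental replicate 1 or Ov4Carbo7 replicate 1 or 3 (0.0514 to 0.0669) and with the title series term (0.31, 0.301). FBH1 rose by 0.27 in Ov4Carbo7 (limma adjusted p = 0.0173), which was lost without parental replicate 2 (0.0666) and with the title series term (0.15, 0.434). Its rise of 0.31 in Ov4Carbo (limma adjusted p = 0.0107) was lost in a fit on the Ov4Carbo and parental samples alone (0.169). Of the 57 genes, 17 changed in none of the lines.

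**Figure D4:**
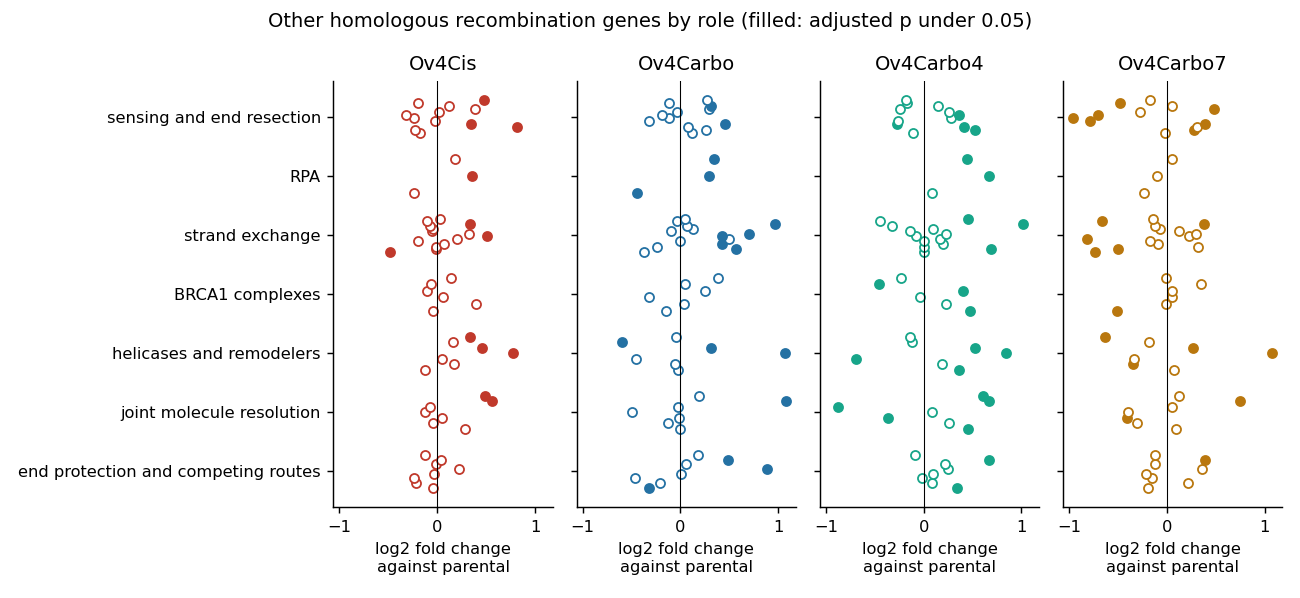
Log2 difference from the parental line (horizontal axes) of the 57 other homologous recombination genes in the 4 resistant lines, grouped by role (vertical axis); filled points had an adjusted p under 0.05. The counts of filled points are 12, 17, 23 and 20 from left to right, and in Ov4Carbo7 more of them lie below 0 than above.

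Many homologous recombination genes are expressed mainly in cycling cells, so 29 genes of S phase and mitosis were read beside them. Against the parental line 5 of these rose and 5 fell in Ov4Cis, 1 rose and 9 fell in Ov4Carbo, 7 rose and 1 fell in Ov4Carbo4, and 1 rose and 17 fell in Ov4Carbo7. Their median differences were 0.01, -0.26, 0.21 and -0.40. In Ov4Carbo7 against Ov4Carbo4, 22 of 29 were lower, where 27.1% of all genes were. MKI67, the proliferation antigen, stood at 6.85 ± 0.14 log2 RPKM in the parental line, 6.75 ± 0.21 for Ov4Cis, 6.22 ± 0.07 for Ov4Carbo, 7.28 ± 0.08 for Ov4Carbo4 and 6.32 ± 0.34 for Ov4Carbo7 (SD, n = 3). The shares of all genes lower than in the parental line were 16.4%, 16.2%, 18% and 20.4% in the same order of lines. Those of genes higher were 19.8%, 17.7%, 21.6% and 22.2%. BRCA2 fell in Ov4Carbo7, where 17 of the 29 fell, and by more in Ov4Cis, where 5 fell and 5 rose. The part of proliferation in the members' levels was not tested.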

How the data were processed

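RNA was prepared with an RNeasy kit and libraries by polyA capture, per the labels' protocols. BWA 0.7.15-r1140, HTSeq and the builds hg19 and GRCh37 are named in the submitters' processing notes, with no role or order. The deposited table holds log2 RPKM values of 16604 genes in 15 samples, and its name gives conditional quantile normalisation and a threshold on low values whose rule is not given in the sources used here. These are not counts, so depth, counting error and strand could not be read from them. The authors' log2 values were used as deposited, with no pseudocount and no further filter.

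Symbols came from the reference tables, and 16448 identifiers had one. limma 3.58.1 (R 4.3.3) was fitted to all genes and samples with 1 mean per line and tested on simulated data. 10 comparisons were made, each two-sided and adjusted over all genes. Groups came from the source names and replicate numbers from the same label. Python 3.11.15 with pandas 2.3.3, numpy 2.4.6 and matplotlib 3.10.9 served for summaries and plots. Promoter sequences are RefSeq's, build GRCh38.p14; all 9 genes matched, and where a gene had several starts, the window holding most GENCODE 29 starts was taken.

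All members are named in the text. From the wider list, up to 3 genes a direction were named per resistant line with an adjusted p under 0.05, an absolute log2 difference of at least 1 and a mean of at least 0 log2 RPKM; for likeness, the 2 genes of highest r with a mean of at least 1. Other genes named were chosen after their values were seen, and some results on the wider list are not reported here. The members and lists were chosen with earlier results of these data known. Alternatives tried were a variance trend, quantile normalisation, median centring, a filter at a mean of 1, log2(RPKM + 1), only the lines compared, a replicate block, a title series term, a stricter adjusted p and leaving out each replicate. No label states that replicate numbers pair the samples. By the deviations of same-numbered samples from their line means, all 3 pairs had r over 0.1 only in Ov4Cis against Ov4Carbo7.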

Additional observations from a re-analysis of the deposited data

Results flagged for a closer look

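XRCC3 differed from the parental line in opposite directions in resistant lines: it rose by 0.46 on the log2 scale in Ov4Cis and fell by 0.68 in Ov4Carbo4 and by 1.00 in Ov4Carbo7. The difference between Ov4Cis and Ov4Carbo4 was 1.15 (limma, adjusted p = 5.31e-05) and that between Ov4Cis and Ov4Carbo7 was 1.46 (1.08e-05), with all 3 Ov4Cis samples above all 3 samples of either clone. The overlap of XRCC3 with KLC1 on the opposite strand applies to these values too. KLC1 differed in the same direction, by 0.47 between Ov4Cis and Ov4Carbo4 (limma, adjusted p = 0.0136) and by 0.36 between Ov4Cis and Ov4Carbo7 (0.0544), and its part in the XRCC3 values was not tested.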

How the results depend on the processing

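Of 59 member differences followed (the 36 from the parental line and the others that passed), 58 kept their direction and side of the threshold under each of the variance trend, quantile normalisation, median centring, the filter at a mean of 1 and log2(RPKM + 1). The exception each time was BRCA2 in Ov4Carbo4, which passed with limma adjusted p of 0.0305 to 0.04976. With only the lines compared in the fit, fewer samples estimate the spread, that of those lines alone. That fit lost 10 calls: XRCC3 in Ov4Cis (adjusted p 0.0637), PALB2 (0.161), RAD51C (0.0551) and XRCC2 (0.111) in Ov4Carbo, BRCA2 in Ov4Carbo7 (0.0862), XRCC2 in Ov4Carbo4 against Ov4Carbo (0.132), PALB2 in Ov4Carbo7 against Ov4Carbo (0.115), and PALB2 (0.0527), XRCC2 (0.0553) and XRCC3 (0.0844) in Ov4Cis against Ov4Carbo. All but XRCC3 in Ov4Cis and BRCA2 in Ov4Carbo7 involve Ov4Carbo. BRCA2 in Ov4Carbo4 (0.0283) and RAD52 in Ov4Carbo7 (0.0365) were gained.

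Counts of members called fell with that fit from 5 to 2 in Ov4Carbo against parental, from 5 to 2 in Ov4Cis against Ov4Carbo and from 2 to 1 in Ov4Carbo7 against Ov4Carbo, and the wider list fell from 17 to 4 in Ov4Carbo. At an adjusted p under 0.01, by construction stricter, members called were 3 in Ov4Carbo and 3 in Ov4Carbo7 against parental, 2 in Ov4Carbo4 and 1 in Ov4Carbo7 against Ov4Carbo, 1 in Ov4Carbo7 against Ov4Carbo4 and 3 in Ov4Cis against Ov4Carbo. The wider list then gave 5, 9, 13 and 9 in Ov4Cis, Ov4Carbo, Ov4Carbo4 and Ov4Carbo7 against parental, and 18 between the clones. With the title series term, members called were 2 in Ov4Carbo4 against parental and 1 in each clone against Ov4Carbo, the wider list gave 14 in Ov4Carbo4, and members with a log2 difference of at least 1 went from 0 to 1 in Ov4Carbo7 against parental and from 1 to 2 in Ov4Cis against Ov4Carbo7. On the log2(RPKM + 1) scale, which shrinks differences of low genes, that count was 0 in Ov4Carbo (from 2) and 0 in Ov4Carbo4 (from 1). The title series term rests on Ov4Carbo replicate 1 against 2 and 3. A series effect cannot be told from their scatter and was not tested.

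Over all genes, the count called in Ov4Carbo against parental went from 5638 to 2344 with only those lines, in Ov4Carbo4 against Ov4Carbo from 7015 to 4480, in Ov4Carbo7 against Ov4Carbo from 6083 to 3369 and in Ov4Cis against Ov4Carbo from 5683 to 2931. With the title series term it went from 7071 to 4181 in Ov4Carbo7 against parental, from 7015 to 4580 and from 6083 to 3024 in Ov4Carbo4 and Ov4Carbo7 against Ov4Carbo, and from 6511 to 4204 in Ov4Cis against Ov4Carbo7. At an adjusted p under 0.01 it was 3215 in Ov4Carbo and 4304 (from 6589) in Ov4Carbo4 against parental, 4382 and 3720 in Ov4Carbo4 and Ov4Carbo7 against Ov4Carbo, and 3353 and 4291 in Ov4Cis against Ov4Carbo and Ov4Carbo7.

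Leaving out each replicate in turn gave 3 to 5 members called in Ov4Carbo against parental, 2 to 4 in Ov4Carbo4 and 1 to 3 in Ov4Carbo7 against Ov4Carbo, 1 to 4 between the clones and 3 to 7 in Ov4Cis against Ov4Carbo. Members with a log2 difference of at least 1 were 0 to 1 in Ov4Cis, 0 to 2 in Ov4Carbo and 0 to 1 in Ov4Carbo7 against parental, and 0 to 1 in Ov4Carbo7 against Ov4Carbo and against Ov4Carbo4. The wider list gave 10 to 20 in Ov4Carbo, 15 to 21 in Ov4Carbo4 and 13 to 17 in Ov4Carbo7. Over all genes, the count called without Ov4Carbo replicate 1 was 6713 in Ov4Carbo against parental, in place of 5638. Against Ov4Carbo it was 7691 in Ov4Carbo4 (from 7015), 7235 in Ov4Carbo7 (from 6083) and 7057 in Ov4Cis (from 5683). Sign changed without 1 library only in differences near 0 that had not passed: RAD51D (range -0.03 to 0.11), XRCC3 (-0.10 to 0.09) and RAD52 (-0.06 to 0.37) in Ov4Carbo, XRCC2 in Ov4Carbo4 (-0.13 to 0.18) and PALB2 in Ov4Carbo7 (-0.09 to 0.01).

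Correlations of same-numbered samples' deviations from their line means ran from -0.394 to 0.437, with 11 of 30 over 0.1. In Ov4Cis against parental they were 0.437, 0.0315 and 0.15. With 3 pairs in each comparison, these values do not settle whether the replicate numbers pair the samples. In Ov4Cis against Ov4Carbo7 all 3 pairs were over 0.1 (0.14 to 0.257), and with the replicate block that comparison had 3 members called, as without it, with 6073 of all genes called in place of 6511. With the replicate block, members called between the clones went from 4 to 3, PALB2 there having an adjusted p of 0.0609, and the count over all genes in Ov4Cis against parental went from 6012 to 5633. The block changed no other member's call.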
